A study of Mus musculus with 4 samples.

Results

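Hox genes are the homeobox transcription factor genes of the HoxA, HoxB, HoxC and HoxD clusters, and they were followed here through the passage from endothelium to blood. Members were all genes on the expression array whose symbol is Hox, a cluster letter from a to d and a paralog number from 1 to 13, each read by its brightest probe set over the arrays. Of 39 such genes in the mouse annotation, 33 had a probe set of their own, out of 18194 named genes on the array. They were 9 HoxA, 9 HoxB, 7 HoxC and 8 HoxD genes. The other 6 were not analysed here.

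All cells came from 1 embryonic stem (ES) cell line, Runx1(Venus/+), made from CCE ES cells, in which the fluorescent reporter Venus sits in 1 Runx1 allele under the proximal promoter P2, so that every population was heterozygous at Runx1. ES cells were grown for 6 days on OP9 cells, a mouse stromal line that supports blood formation, with no other treatment, and 4 populations were sorted. Population 1 was Runx1-/VE-cadherin+/Flk1+ and population 2 was Runx1+/VE-cadherin+/CD41-. Population 3 was Runx1+/VE-cadherin+/CD41+ and population 4 was Runx1+/VE-cadherin-/CD41+, where Runx1 stands for Venus fluorescence. The study proposes that population 1 is likely limited to an endothelial fate and population 4 to primitive blood. In its assays populations 2 and 3 had both endothelial and lymphoid potential. Differences between populations are thus differences between sorted cells, and no cells were followed over time. RNA of each population was hybridised to 1 Affymetrix array among the data used here, so no test or error between populations can be given. The study's methods also name Agilent arrays of these populations, which were not analysed here. A signal above 100, the limit for expression in the study's methods, is called expressed here. Folds were computed with signals raised to 100, so that a fold against a lower signal is a lower bound. In sorted bulk RNA, fewer cells with a transcript and less transcript per cell cannot be told apart.

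Each Hox cluster holds genes in a fixed order, and genes of the same paralog number in different clusters descend from 1 ancestral gene. Low-numbered (anterior) genes are switched on early and in the front of the embryo, high-numbered (posterior) genes later and further back. In blood, Hox genes are known for their part in stem and progenitor cells, and Hoxb4 and Hoxa9 for promoting their self-renewal and growth. Hox proteins bind DNA together with cofactors of the TALE homeobox class (Meis, Pbx and Pknox).

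Hox expression was confined, among the genes measured at a limit of 100, to a run of 4 anterior HoxB genes, Hoxb2, Hoxb3, Hoxb4 and Hoxb5, and to Hoxd8. The HoxB genes exceeded 100 in populations 1, 2 and 3, the 3 populations with VE-cadherin, and all 4 lay below 100 in population 4. Hoxd8 exceeded 100 in population 1 alone. Thus 5 Hox genes were expressed in population 1, 4 in population 2, 4 in population 3 and 0 in population 4. These counts were the same under each of the 3 other array scalings tried. They leave out a probe set shared by several HoxB genes, which also exceeded 100 in population 1 (160).

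**Figure D1:**
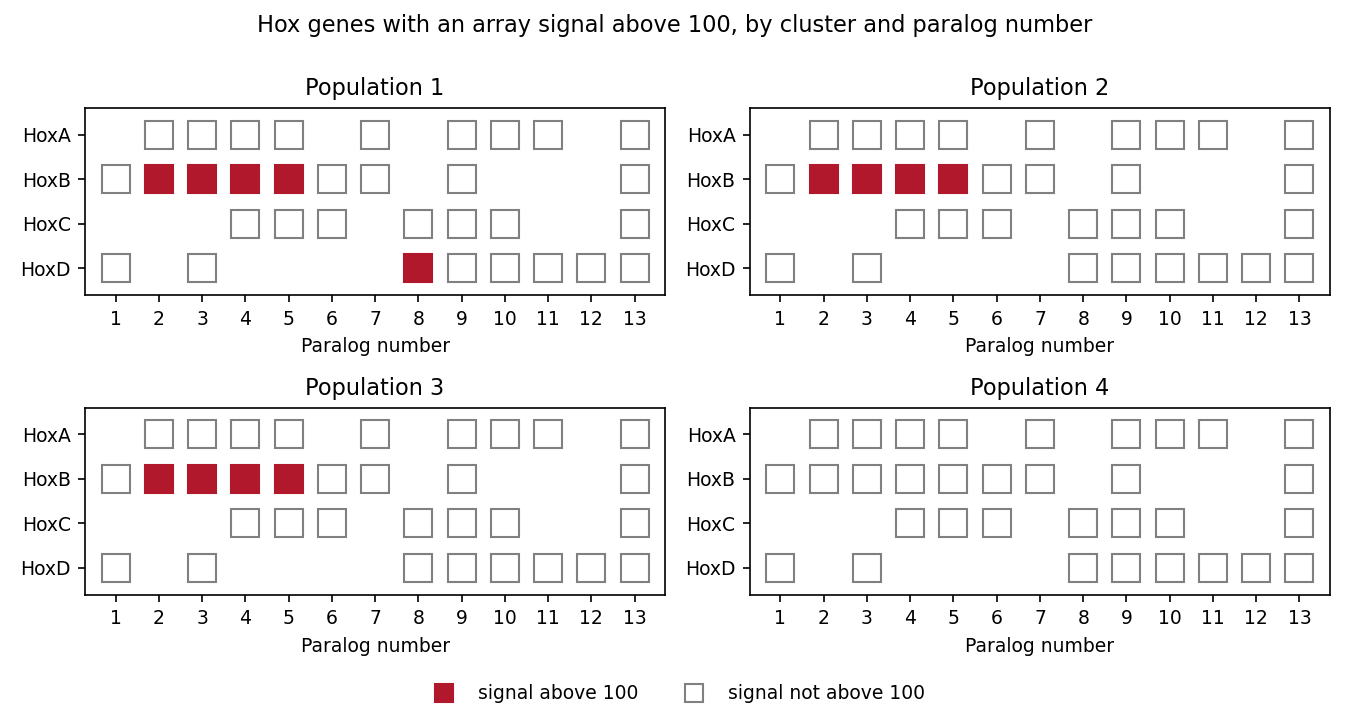
Hox genes by cluster (rows) and paralog number (columns) in each population, with filled squares for a signal above 100 and open squares for a signal not above 100, each for a measured gene. The filled squares are Hoxb2 to Hoxb5 in populations 1 to 3 and Hoxd8 in population 1, and population 4 has none.

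Set beside all genes, few Hox genes were expressed. In at least 1 population 5 of 33 (15.2%) exceeded 100, where 52% of all 18194 genes did. For single populations, the Hox shares were 15.2%, 12.1%, 12.1% and 0% in populations 1 to 4, while 45.1%, 44.5%, 47.6% and 45.9% of all genes exceeded 100. By position, 4 of 13 measured genes of paralog groups 1 to 5 were expressed, 1 of 6 in groups 6 to 8 and 0 of 14 in groups 9 to 13. By cluster, 4 of 9 HoxB and 1 of 8 HoxD genes were expressed, and 0 of 9 HoxA and 0 of 7 HoxC genes. Paralog groups 2, 3, 4 and 5 each had 1 expressed member, and in each it was the HoxB gene.

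Promoter sequence was at hand for 2 of the 5 expressed genes, Hoxb4 and Hoxd8, among windows of 300 bases (250 before and 50 after the start) from RefSeq, assembly GRCm38.p6. The bases just before the Hoxb4 start and a stretch of the Hoxd8 window are shown because no other expressed gene had a window. A CCAAT box, the motif bound by NF-Y, is in capitals.
Hoxb4, chr11:96318237-96318266, plus strand: ttaaaaccccacacagacacctagtgcgtg
Hoxd8, chr2:74704541-74704570, plus strand: caaatgcaaggaCCAATcaatccgtcaacc

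The table held 24 windows of 22 Hox genes. Both strands were searched for the CCAAT box, for TGTGGT and for TGCGGT, which are forms of the Runx consensus, for the GATA factor motif AGATAA, for the E-box CACGTG and for the Hox with Pbx motif TGATTNAT. Some letters can overlap between motifs. The Hoxb4 window held none of them, and the Hoxd8 window only the CCAAT box. This box was in 15 of the 24 Hox windows (62.5%) and in 37.4% of all 32851 windows, and the E-box in 5 (20.8%), all of HoxD genes, against 7.15%. The GATA motif was in 0 Hox windows, against 11.2% of all, and the Hox with Pbx motif in 2, against 3.22%. Of the Runx forms, TGTGGT was in 1 (4.17%), against 16.8% of all windows. The form TGCGGT was in 2 (8.33%), against 6.45%. The matches to the Runx letters, in capitals and as read on the plus strand, are shown because the populations were sorted on Runx1. They lay before 3 HoxD genes that were not above 100 in any population.
Hoxd10, chr2:74691869-74691898, plus strand: gcttggttgtcaTGTGGTcggcagaggcat
Hoxd3, chr2:74711829-74711858, plus strand: ttatgacctattTGCGGTcgtcattggctg
Hoxd1, chr2:74762889-74762918, plus strand: caggcgcgtggaACCGCActccagtcggga

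A match of letters is a description of the window and shows no binding.

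Hoxb2, an anterior gene known for its part in hindbrain patterning, had signals of 242, 327, 279 and 45.9 in populations 1, 2, 3 and 4. The 3 VE-cadherin positive populations lay close together and population 4 apart, at least 2.79-fold lower than population 3. Hoxb2 was 1.35-fold higher in population 2 than in population 1.

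Hoxb3 had signals of 283, 390.4, 397 and 12.1. Population 4 was the low one, at least 3.97-fold under population 3 and at least 2.83-fold under population 1. Its other probe set gave 74.1, 91.3, 92.7 and 4.92, the same order of populations below the limit. In the annotation Hoxb4 lies within the span of Hoxb3, so that transcripts of the pair can overlap.

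Hoxb4, a gene known to expand blood progenitors when forced on, had signals of 115, 174, 173 and 34.9. It was higher in population 2 than in population 1, by 0.59 on the log2 scale, and populations 2 and 3 were nearly equal. Population 4 lay below population 3 by at least 1.73-fold and below population 1 by at least 1.15-fold, and these bounds can only be small for signals this near to the limit. The second Hoxb4 probe set gave 72.7, 73.0, 78.8 and 5.20, again lowest in population 4.

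Hoxb5, a gene known to mark long-term stem cells of adult bone marrow, had signals of 182, 156, 206 and 1.41 in populations 1 to 4. Populations 1 to 3 differed by less than 2-fold, and population 4 was at least 2.06-fold lower than population 3 and at least 1.82-fold lower than population 1. Unlike Hoxb2, Hoxb3 and Hoxb4, it was not higher in population 2 than in population 1, with a log2 ratio of -0.22. Hoxb5os, a non-coding gene antisense to the cluster and no member, gave 66.2, 36.8, 49.9 and 2.43, below the limit throughout. It was lowest in population 4, as were the antisense genes Hoxa11os (27.3, 3.18, 8.81 and 2.98) and Hoxd3os1 (19.1, 2.95, 16.8 and 1.36) of the HoxA and HoxD clusters. Of all genes never above 100, 22.3% were lowest in population 4. The order of signals this low is given as a description only.

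**Figure D2:**
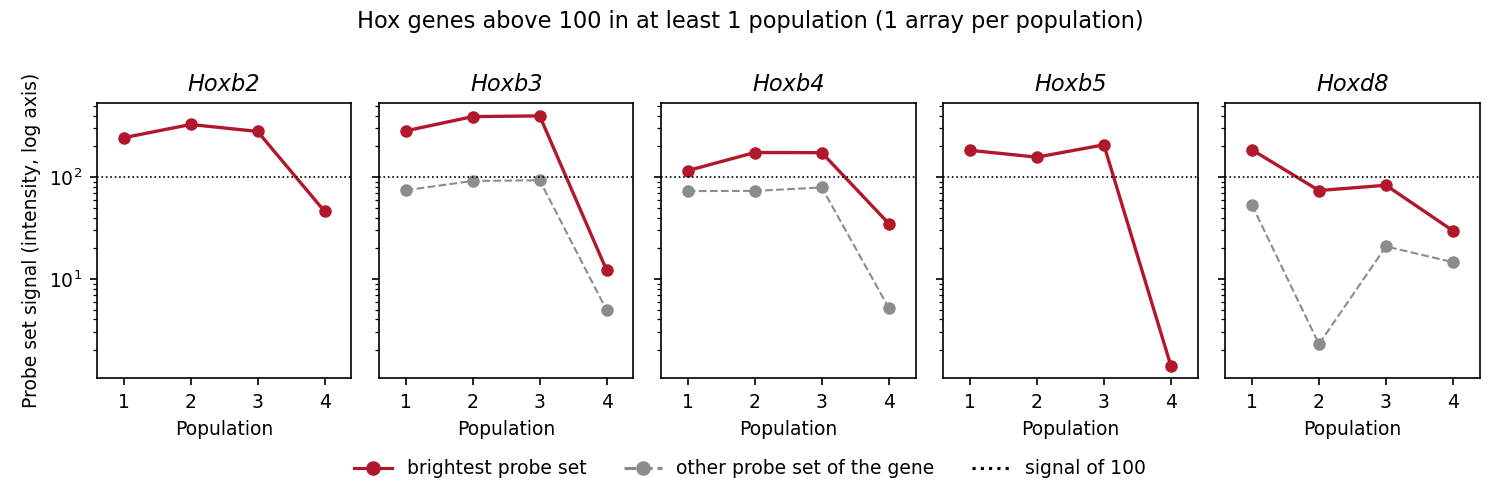
Probe set signals (intensity, log axis) of the 5 expressed Hox genes in populations 1 to 4, with the brightest probe set in red, other probe sets of the gene in grey and a dotted line at 100. Each point is 1 array. Hoxb3 stands at 397 in population 3 and at 12.1 in population 4, and Hoxd8 is above the line in population 1 alone.

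Hoxd8, a gene of the middle of its cluster, had signals of 184, 73.5, 82.9 and 29.7. Population 1 was at least 1.84-fold higher than each of the others, which all lay below 100. The call rests on 1 probe set, as the other gave 53.0, 2.29, 20.8 and 14.6, below 100 in every population, though also highest in population 1. With the mean over both probe sets Hoxd8 was not above 100 in any population. A probe set shared by several HoxB genes, which was left out because it names no single gene, was also highest in population 1, with signals of 160 there, 96.4 in population 2, 58.5 in population 3 and 11.4 in population 4.

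Counted by a difference of at least 2-fold, 3 of the 33 Hox genes (9.09%) were lower in population 4 than in population 3, namely Hoxb2, Hoxb3 and Hoxb5, and 0 were higher. Of all genes, 6.33% were lower and 4.13% higher at that step. From population 1 to 4, 2 Hox genes (6.06%), Hoxb2 and Hoxb3, were lower, against 6.72% of all genes, and 0 were higher, against 11.7%. After centring each array on its median, 4 Hox genes in place of 2 were lower in population 4 than in population 1 and 2 in place of 3 lower than in population 3. Shares of all genes are given on the deposited scale at the limit of 100 only, so the counts after centring cannot be set against them. Centring also lowered the median log2 ratio of population 4 to 1 over all expressed genes, from 0.36 to 0.10. With a limit of 200 in place of 100 the lower counts were 0 in both comparisons, and could not be otherwise. Signals were then raised to 200, and the highest Hox signal was 397, less than 2-fold above it. The shares at the limit of 100 lie near those of all genes. With signals raised to 100, a gene could be called lower only from a signal of at least 200. In population 3 only Hoxb2, Hoxb3 and Hoxb5 reached this (279, 397 and 206), and in population 1 only Hoxb2 and Hoxb3 (242 and 283). All of these were called. Hoxb4, Hoxd8 and the 28 of the 33 never above the limit could not be called in either comparison. From population 1 to 2, and from population 2 to 3, 0 Hox genes differed 2-fold in either direction. At the step from 1 to 2, 1.52% of all genes were higher and 2.18% lower, and at the step from 2 to 3, 1.62% were higher and 0.132% lower. All 5 expressed Hox genes (15.2% of the 33) passed a filter for dynamic genes, against 7.58% of all genes. It was modelled on that of the study's methods, where the scale of the deviation is not stated and log2 was taken here. The filter asked for log2 signals with a standard deviation over 1, and 1 signal over 100. The deviation also used signals far below 100, such as 1.41 for Hoxb5 in population 4. Hoxb4 (1.09) and Hoxd8 (1.08) passed narrowly, and on the hybridisation controls 4 Hox genes passed.

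Over the 5 expressed Hox genes, the median log2 ratio was 0.43 from population 1 to 2, 0 from population 2 to 3 and -1.05 from population 3 to 4. Over the 9468 genes above 100 in at least 1 population the first pair of medians was 0 and 0.22. From population 1 to 4 the Hox median was -0.88. All 5 genes had passed the limit through populations 1 to 3 alone, and with signals raised to 100 their ratios of population 4 to another could only be 0 or negative. Hoxd8 enters the step from 3 to 4 as 0 because both signals were below 100. Nothing is read from the medians that involve population 4, and the 28 Hox genes never above 100 do not enter. The direction from population 2 to 3 depended on the scaling for Hoxb2, Hoxb3 and Hoxb4, and that from 3 to 4 was negative for all 4 HoxB genes under each scaling. Of the 4 Hox genes above 100 in each of populations 1 to 3, all 4 were below 100 in population 4, where 7.36% of the 7668 genes chosen in the same way were. The 7668 genes were not matched for signal, and the 4 HoxB genes lay between 115 and 397 in populations 1 to 3, where a gene can cross the limit more readily. With the mean over a gene's probe sets, 3 Hox genes exceeded 100 in population 1. The 4 HoxB genes are neighbours on 1 chromosome, and all values come from the same arrays. These data hold no measure of error between populations, cultures or sorts. The only spread that can be read is between probe sets of a gene on the same arrays, which read the same RNA. Over 6801 pairs of a gene's brightest probe set and another above 100, log2 ratios of population 4 to population 1 differed by a median of 0.29.

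Among the 28 Hox genes that were never above 100, the nearest to the limit were Hoxa5, Hoxd9, Hoxa9, Hoxc9 and Hoxb9, and the highest signals of the 28, by brightest probe set, ranged from 3.61 to 81.3 with a median of 16.2. Hoxa5 had signals of 49.4, 81.3, 80.7 and 75.3 by a probe set whose name marks possible cross-hybridisation, and its other probe set stayed at or below 37.1. Hoxa9, a gene of blood progenitors and of leukaemia, had signals of 48.9, 64.7, 51.3 and 26.8, and 92.8, 16.3, 22.0 and 13.8 by its other probe set. The probe sets of Hoxa9 thus differed in which population was highest.

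Hoxd9, next to Hoxd8 in the cluster, gave 80.4, 15.7, 22.5 and 7.54, highest in population 1 as Hoxd8 was. Hoxc9 gave 47.6, 23.0, 24.4 and 9.24. Hoxb9, the gene beyond Hoxb8 in its cluster, gave 29.4, 45.0, 33.8 and 3.79. With a limit of 50 in place of 100, Hoxa5, Hoxa9 and Hoxd9 joined the expressed genes, and Hoxa5 was then the only Hox gene expressed in population 4.

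Below the limit the clusters differed in where their lowest signal lay. Of the 5 HoxB genes never above 100, 4 were lowest in population 4 (Hoxb1, Hoxb6, Hoxb9 and Hoxb13), which together with Hoxb2 to Hoxb5 makes 8 of 9 HoxB genes. Of 9 HoxA genes, 1 was lowest in population 4 and 6 in population 2. Of the HoxC genes 2 of 7, and of the HoxD genes 3 of 8, were lowest in population 4, which gives 14 of the 33 Hox genes, against 25% of all genes. Among all 8726 genes never above 100, 22.3% were lowest in population 4 and 39.1% in population 2, and among the 28 Hox genes 9 and 14 were. Signals this low are not called expressed, and their order is given as a description only.

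**Figure D3:**
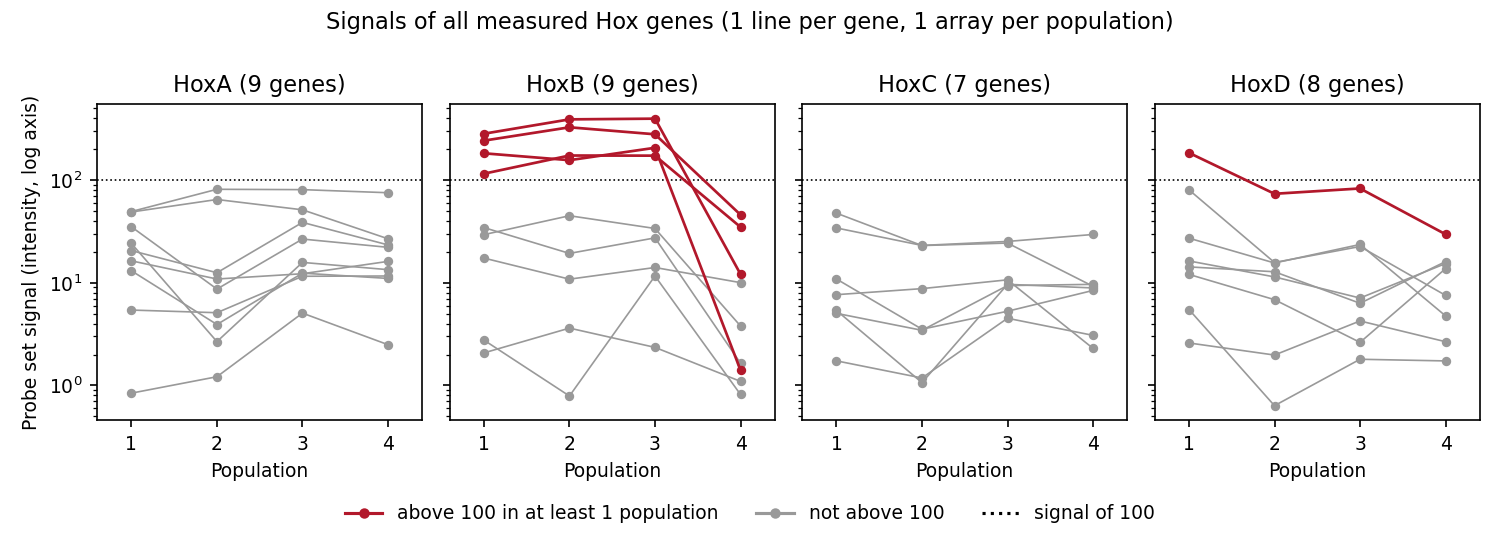
Signals (intensity, log axis) of the 33 measured Hox genes, with 1 line per gene, 1 panel per cluster and 1 array per population, in red where the gene exceeded 100 (dotted line) in at least 1 population. Levels are comparable along a line, not between genes, since each line is another probe set. HoxB holds 4 red lines that drop below 100 in population 4, and HoxD holds 1.

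The genes that define the sorted populations were read on the same arrays. VE-cadherin (Cdh5), the sort marker of endothelium, had signals of 5683, 3946, 4849 and 40.9, which is the order of presence and absence found for Hoxb2 to Hoxb5. Of 10 endothelial markers, Cdh5 included, 10 were lower in population 4 than in population 3 by 2-fold or more (median log2 ratio -3.15). None was at 0, and their summed signal went from 25070 in population 3 to 3014 in population 4. Erythroid markers went the other way, with 9 of 9 measured ones higher in population 4 by 2-fold or more, among them Gata1 (50.7 and 2065), and summed signals of 4955 and 52575. The part of these marker differences in the HoxB values was not tested.

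Stromal genes were considered because OP9 cells were in the culture. Of 10 stromal markers, 5 exceeded 100 in population 1 and 3 in each of populations 2, 3 and 4, and their summed signal was 3356, 2050.0, 1846 and 1488 in populations 1 to 4. None was listed at 0, but Col1a1, Pdgfra, Lum, Dcn and Thy1 never exceeded 100. The stromal sum was thus highest in population 1, where Hoxd8 was. Its part in the Hoxd8 signal was not tested. Of 6 pluripotency markers 0 exceeded 100 in any population, of 7 measured markers of early mesoderm 1 did (Eomes), of 8 neural markers 1 (Nes), and of 8 myeloid markers 4 in population 3 and 5 in population 4.

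Of 8 TALE cofactor genes measured, 5 were expressed, against 52% of all genes. Meis1, which binds DNA with Hox proteins and is needed in blood stem cells, had signals of 170, 213, 326 and 137, highest in population 3 and 2.38-fold lower in population 4. Meis2 had 512, 129, 110.0 and 45.4. Population 1 was its highest, as for Hoxd8, 3.97-fold above population 2 and at least 5.12-fold above population 4. Pbx2 (803, 791, 1300 and 1281), Pbx3 (916, 1508, 1481 and 1025) and Pknox1 (238, 182, 282 and 407) exceeded 100 in every population, including population 4. Of the 8 genes, 1 (Meis2) had a signal lower by 2-fold or more in population 4 against population 1, and 0 a higher one. Of all genes, 6.72% were lower and 11.7% higher. The Meis1 log2 ratio of population 4 to 1 was -0.31 on the deposited scale and 0.02 on the hybridisation controls, and those of Pbx3 also changed sign between scalings. On the hybridisation controls the count of higher genes was 2 of the 8, namely Pbx2 and Pknox1. That scaling also moved the median log2 ratio of all expressed genes, from 0.36 to 0.65.

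The caudal genes Cdx1, Cdx2 and Cdx4, homeobox factors that switch on Hox genes in the posterior embryo, were not expressed. Their highest signals were 1.85, 24.0 and 7.05. All 10 genes listed for the MLL complex and its trithorax partners, which keep Hox genes in the active state, were expressed, against 52% of all genes. Kmt2a, encoding MLL1, had signals of 434, 410.1, 511 and 384, and differed by less than 2-fold over the populations. Its ratio of population 4 to 1 changed sign between scalings. From population 1 to 4, 2 of the 10 were higher by 2-fold or more and 0 lower, against 11.7% and 6.72% of all genes. On the hybridisation controls 5 were higher, with Psip1, Ash2l and Wdr5 added. The median log2 ratio of all expressed genes was also higher there, 0.65 against 0.36 on the deposited scale. Rbbp5, a core subunit, was 3.23-fold higher (217, 374, 400.4 and 701). Mllt3, encoding AF9, a partner in leukaemic MLL fusions, had signals of 81.5, 103, 120 and 2368 so that population 4 stood at least 23.7-fold above population 1. Its 3 probe sets were all higher there.

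Retinoic acid is a known inducer of anterior Hox genes. Of 13 measured genes of its pathway 4 were expressed, against 52% of all genes. In population 4 against population 1, 1 was lower by 2-fold or more, against 6.72% of all genes, and 0 were higher, against 11.7%. On the hybridisation controls Rxrb was higher. The lower gene was Cyp26a1, the enzyme that degrades retinoic acid, with signals of 533, 1990.4, 966 and 106. It was 3.74-fold higher in population 2 than in population 1 and 9.15-fold lower in population 4 than in population 3, by its only probe set. Aldh1a1, Aldh1a2 and Aldh1a3, which make retinoic acid, were below 100 in every population, as were the receptor genes Rara, Rarb and Rxrg. The receptor genes Rxra (134, 111, 170 and 154) and Rxrb (278, 310, 445 and 449) exceeded 100 in every population. Rarg exceeded 100 in population 3 alone (142).

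Of 13 genes listed because they lie beside the Hox clusters, 9 were expressed, against 52% of all genes. In population 4 against population 1, 11.7% of all genes were higher by 2-fold or more and 6.72% lower. Of the 13, 3 were higher and 0 lower. These were Lnpk, which lies beyond Evx2 at the Hoxd13 end (69.1, 174, 150.1 and 347), Mtx2, next to Hoxd1 (635, 719, 779 and 1294), and Cbx5 near Hoxc4 (1065, 1765, 1709 and 3247). Mtx2 differed by less than 2-fold after centring on the array median. Evx1 and Evx2, the homeobox genes at the posterior ends of HoxA and HoxD, were below 100 throughout. Skap1, the gene next to Hoxb1, had signals of 68.2, 235, 483 and 80.9 and was chosen after its values were seen. By this probe set, the only 1 of its 3 above 100, it lay in population 4 at least 4.83-fold below population 3, and it was also below 100 in population 1. Snx11 and Cbx1, farther on at the same end, did not differ 2-fold between populations 3 and 4.

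**Figure D4:**
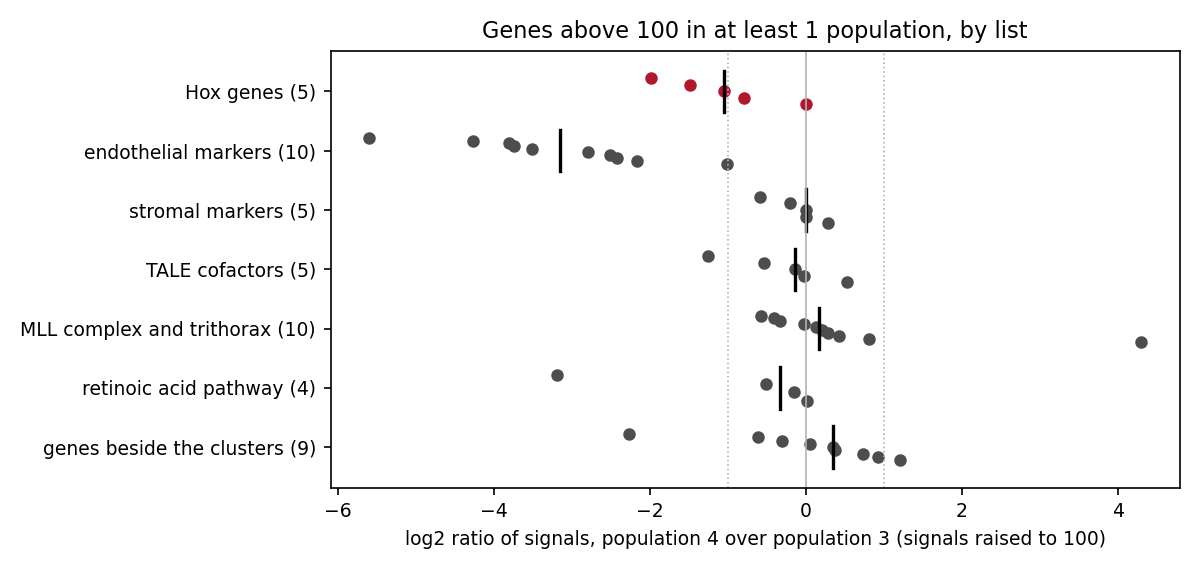
Log2 ratio of signals in population 4 over population 3 (signals raised to 100) for genes above 100 in at least 1 population, with 1 point per gene, a bar at the median of each list, the number of genes in brackets and dotted lines at 2-fold. The Hox median is -1.05, where the choice of genes allows no value above 0, and the endothelial median -3.15, and Mllt3 is the point far to the right in the MLL list.

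**Figure D5:**
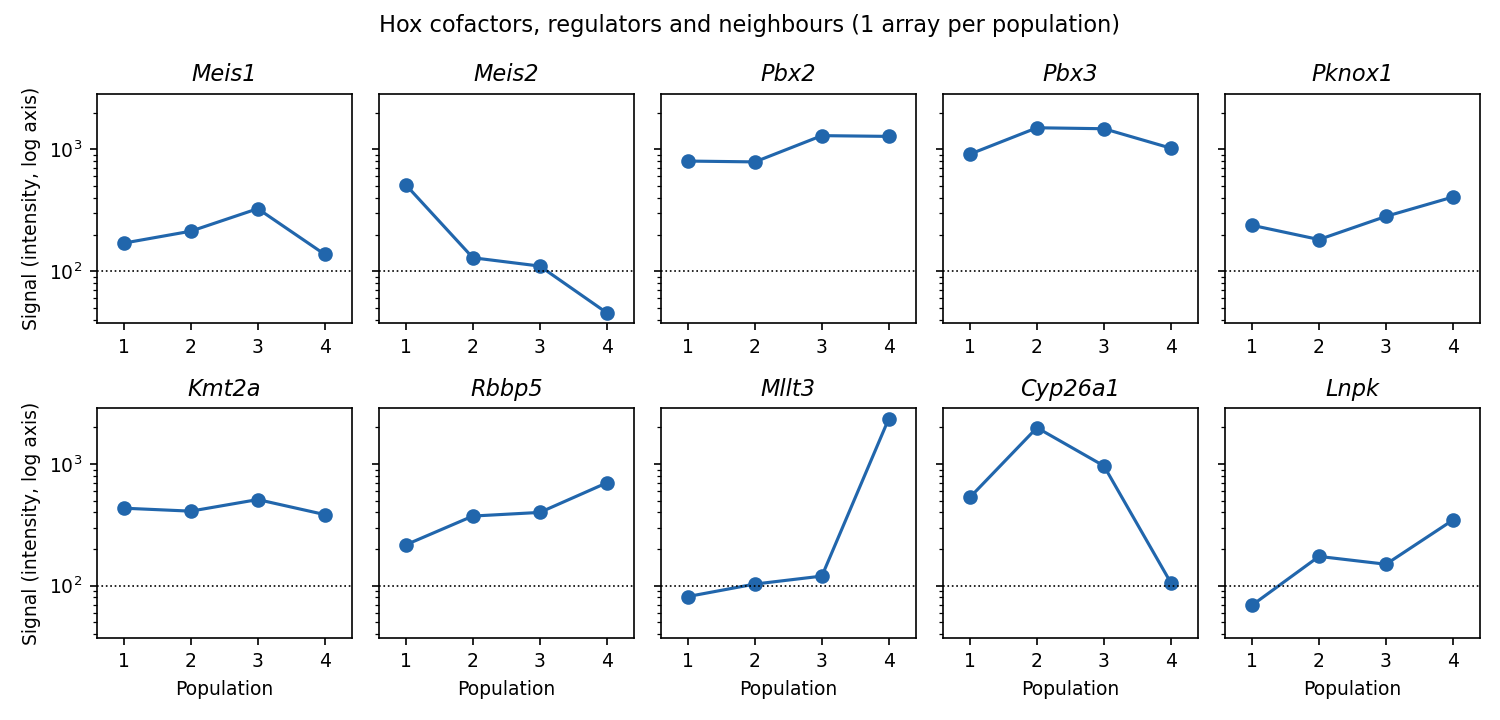
Signals (intensity, log axis) of Hox cofactors, regulators and neighbours in populations 1 to 4, with 1 array per point and a dotted line at 100. Kmt2a varies between 384 and 511, Mllt3 is 2368 in population 4, and Cyp26a1 has its highest signal, 1990.4, in population 2.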

How the data were processed

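The authors deposited probe set signals of Affymetrix mouse expression arrays, in intensity units on a linear scale, for 4 arrays, 1 per population. The submitters' processing notes name MAS5 and GCOS 1.3. The scaling target and detection calls are not given in the sources used here, and the number of arrays limits the precision. Of 45101 probe sets, 34958 had 1 gene symbol by the platform annotation, updated through RefSeq gene records of GRCm38.p6, which gave 18194 genes. Those with several symbols (932) and those without one, controls included (9211), were left out. Of 51 Hox probe sets, 48 named 1 Hox gene and 3 several. The brightest probe set of a gene had the highest mean log2 signal. Before the standard deviation signals under 1 were set to 1.

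Genes named are all expressed Hox genes, the 5 nearest to the limit, and from the other lists those 2-fold different between populations 4 and 1 and Meis1, Kmt2a and Cdx genes. Values of other list genes were chosen after they were seen. Members and lists were chosen with earlier results of these data known. Alternatives were limits of 50 and 200, centring on the median or quantile normalisation of the arrays, averaging a gene's probe sets, and dropping those ending in _x_at or _s_at. Scaling on 18 hybridisation control probe sets and counting any probe set were added after seeing the data. The computation was tested on simulated data. Python 3.11.15, pandas 2.3.3, numpy 2.4.6 and matplotlib 3.10.9 were used.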

Additional observations from a re-analysis of the deposited data

How the results depend on the processing

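The signal limit had the most effect. With a limit of 50, 8 Hox genes were expressed in at least 1 population, 7 in population 2, 7 in population 3 and 1 in population 4, 1 was 2-fold lower in population 2 than in 1 and 5 in population 4 than in 1, and the median log2 ratio of population 4 over 1 was -1.54. With a limit of 200, 3 were expressed in at least 1 population, 2 in population 1 and 2 in population 2, and 3 were dynamic. The 2-fold lower counts were then 0 for population 4 over 3 and 0 for 4 over 1, and the medians -0.48 and -0.28. No other lower count was possible, since signals were raised to 200 and the highest Hox signal was 397. Centring on the median, as quantile normalisation, gave 4 Hox genes 2-fold lower in population 4 than in 1, and 1 lower in population 2 than in 1. Shares of all genes are not given for other limits or scalings, so counts under them have no share beside them. The mean over probe sets gave 3 expressed in population 1 and 1 lower in population 4 than in 1. Scaled on hybridisation controls, the median of population 3 over 2 was 0.37. The cause was not tested. The count lower in population 4 than in 3 was 2 in place of 3 after centring, quantile normalisation or averaging of probe sets. The other values, with these 109 of 131, moved by at most 1.5 times (counts) or 0.29 (log2 medians). Some of them could not move, so the tally is no measure of robustness. Leaving out probe sets ending in _x_at or _s_at touched none of the brightest probe sets of the 5 expressed genes. Where no Hox signal in population 4 exceeds the limit, the count of Hox genes higher there can only be 0.

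The median of population 4 over 1 for all expressed genes was 0.36 on the deposited scale, 0.10 after centring, 0.12 after quantile normalisation and 0.65 on the hybridisation controls. Over these scalings Hoxb3 in population 4 over 3 ranged from -2.16 to -1.82, Hoxb5 from -1.22 to -0.86 and Hoxb4 from -0.96 to -0.60. Kmt2a and Meis1 changed sign between scalings in population 4 over 1. No paired analysis was possible because each population has 1 array.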
